A study of Mus musculus with 8 samples.

Results

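The *Ifitm* family of the mouse is described here by 5 genes, *Ifitm1*, *Ifitm2*, *Ifitm3*, *Ifitm6* and *Ifitm10*, which were picked by symbol out of 48321 gene symbols counted in 8 RNA-seq libraries. They were chosen for how their levels differed between days and genotypes in these same libraries. Their levels and fold changes are therefore given as a description, with no p-value. RNA came from CD8+ T cells, the cytotoxic T lineage, of C57BL/6 mouse spleen. The mouse line was *Satb1* F/F; *E8I-cre*, in which *Satb1*, encoding a DNA-binding organizer of T-cell chromatin, is flanked by recombination sites and Cre is driven by an enhancer of the *Cd8a* locus that is active in mature CD8 lineage cells. Libraries formed 4 groups of 2: WT at Day 0, KO at Day 0, WT at Day 5 and KO at Day 5, where Day 5 cells had been cultured in vitro and the series title calls such cells stimulated. The labels name neither the stimulus, nor the alleles that the WT mice carried, nor the age or sex of the mice, nor whether cells of several mice were pooled, and they do not say that the 2 libraries of a group came from separate mice, so the spread between them may be technical.

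*Satb1* itself averaged 94.7 CPM (read counts scaled to equal library size) in WT and 134 CPM in KO at Day 0, so it was not lower in KO. At Day 5 it averaged 106 CPM in WT and 59.4 CPM in KO, lower in KO. Counts over a whole gene do not show by themselves whether its flanked part was removed. WT and KO therefore stand for the libraries labelled so. Gene counts totalled 4170126 in the shallowest library and 11117971 in the deepest, KO replicate 1 at Day 0, and 3 counts, taken as the smallest level a library can show, corresponded to 0.257 to 0.723 CPM. CD8 T-cell genes (*Cd3e*, *Cd3d*, *Cd3g*, *Cd8a*, *Cd8b1*, *Trac*) summed to 12133 to 13034 CPM at Day 0 and to 7958 to 9001 CPM at Day 5, and *Cd4*, *Zbtb7b* and *Cd40lg* together to at most 6.26 CPM, so the markers fitted the labelled cell type. Each Day 0 library was handled before culture and each Day 5 library after it, so culture and any difference in sample handling between the days cannot be told apart.

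IFITM proteins are small membrane proteins of the CD225 domain family. They sit in the plasma membrane and in endosomes and hinder the fusion of enveloped viruses with these membranes, IFITM3 mainly in late endosomes and IFITM1 nearer the cell surface. Their genes are well-known targets of interferons, whose receptors signal through JAK kinases and STAT and IRF transcription factors, and IFITM3 is known to mark memory CD8+ T cells that reside in the lung. *Ifitm6* and *Ifitm10* are the less studied members of the family.

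*Ifitm1*, *Ifitm2*, *Ifitm3* and *Ifitm6* lie together within 63.1 kb of chromosome 7 (GRCm38). *Ifitm2* spans chr7:140954837-140955987 on the minus strand, *Ifitm1* chr7:140967221-140969825 on the plus strand, *Ifitm3* chr7:141009586-141010770 on the minus strand and *Ifitm6* chr7:141015699-141017924 on the minus strand. *Ifitm10* lies 1308 kb away at chr7:142325837-142373753, also on the minus strand. The promoters of the 3 genes that carry the culture difference are shown so that their letters can be set beside the levels. They are the bases before the RefSeq start that lie outside annotated exons (RefSeq, GRCm38.p6, read along the gene's strand): chr7:140967826-140968027 for *Ifitm1*, chr7:140955988-140956211 for *Ifitm2* and chr7:141010771-141010994 for *Ifitm3*. Capitals mark matches to the motifs named after the sequences.
Ifitm1 promoter: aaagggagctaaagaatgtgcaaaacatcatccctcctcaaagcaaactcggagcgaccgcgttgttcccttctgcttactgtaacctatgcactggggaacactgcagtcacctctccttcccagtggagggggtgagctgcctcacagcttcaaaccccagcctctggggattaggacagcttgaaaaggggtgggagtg
Ifitm2 promoter: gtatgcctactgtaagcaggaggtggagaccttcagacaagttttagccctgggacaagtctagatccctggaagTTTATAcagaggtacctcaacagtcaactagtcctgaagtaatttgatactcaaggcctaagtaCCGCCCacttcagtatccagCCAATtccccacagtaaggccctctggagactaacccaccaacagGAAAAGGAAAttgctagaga
Ifitm3 promoter: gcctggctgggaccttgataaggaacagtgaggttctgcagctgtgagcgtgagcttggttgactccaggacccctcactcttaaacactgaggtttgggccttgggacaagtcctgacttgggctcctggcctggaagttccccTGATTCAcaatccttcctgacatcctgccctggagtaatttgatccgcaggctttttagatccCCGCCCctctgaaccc

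The motifs searched, on both strands of the 250 bases before each start, were 2 copies of GAAA with 2 bases between them for the interferon-stimulated response element, TTCNNNGAA for the gamma-activated site, TATAAA for the TATA box, TGANTCA for the AP-1 site, GGGCGG for the GC box and CCAAT for the CCAAT box, and no matches to different motifs overlapped. All 5 members had a promoter in the RefSeq table, with 7 start windows in all. The *Ifitm2* window held GAAAAGGAAA from 46 to 37 bases before the start. The response element was present in 2.98% of all 32851 promoter windows of this length. No window of another member held it. *Ifitm2* also held a TATA box on the other strand, 2 GC boxes, of which 1 lies in the exon bases left out here, and a CCAAT box. *Ifitm3* held an AP-1 site (TGATTCA), a motif found in 6.75% of all windows, and a GC box (32.7% of windows), and *Ifitm1* held none of these motifs. *Ifitm6* held a gamma-activated site (TTCCTTGAA), which 7.02% of windows had, a TATA box (12.4%), a GC box and a CCAAT box (33.8%). *Ifitm10* has 3 windows, of which 2 overlap and hold the same TGAGTCA site, and 2 held a GC box. A match of letters is a description and not evidence of binding. The RefSeq starts used here also differ from the annotated GENCODE starts. Their offset in chromosome coordinates was 855 bases for *Ifitm1*, -26 for *Ifitm2* and *Ifitm3*, and -1032 for *Ifitm6*. For the 2 overlapping windows of *Ifitm10* it was -1494 and -1426.

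Members resemble each other in sequence, which matters for how short reads can be assigned. Coding sequences of *Ifitm1*, *Ifitm2* and *Ifitm3* were between 79.6% and 80.6% identical in pairs, against 64.1% to 68.2% for each of them with *Ifitm6* and 59.9% to 68.3% with *Ifitm10*. A 50-base coding window, as long as a read in these libraries, is shown because it is where the 3 genes are most alike (GENCODE M21, GRCm38: chr7:140968351-140968400 for *Ifitm1*, plus strand, chr7:140955708-140955757 for *Ifitm2*, minus strand, and chr7:141010435-141010484 for *Ifitm3*, minus strand). Capitals mark the 4 positions at which the 3 sequences are not all the same.
Ifitm1 coding window: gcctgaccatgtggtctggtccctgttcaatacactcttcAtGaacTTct
Ifitm2 coding window: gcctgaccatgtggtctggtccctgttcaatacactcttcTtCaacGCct
Ifitm3 coding window: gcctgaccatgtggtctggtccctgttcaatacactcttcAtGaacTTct

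*Ifitm1* and *Ifitm3* had 0 mismatches in this window, and *Ifitm2* had 4 to each of them. A read that covers it cannot tell *Ifitm1* from *Ifitm3*. Over all 50-base windows of the annotated exons, 5.02% of those of *Ifitm1*, 22.8% of those of *Ifitm2* and 10.02% of those of *Ifitm3* occurred again elsewhere in the transcriptome. Windows repeated in another member made up 1.42%, 3.30% and 5.56% of all windows, and the rest were repeated in other annotated genes such as Gm7676 and Gm11951. *Ifitm6* and *Ifitm10* had no window of this kind. Of all alignment records, 31.8% to 37.4% per library were set aside as not unique, so reads from repeated windows would not be counted. *Ifitm2* shares 40.9% of its exon bases with Gm45717, an annotated gene on the same strand that is not among the counted symbols. *Ifitm10* shares 4.49% of its exon bases with Gm49369, an overlapping gene also on its strand, and such local overlaps were not counted as repeats elsewhere.

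With culture, 3 members of the cluster went from at or near 0 to between 80.2 and 1799.9 CPM, in each genotype. *Ifitm1*, which encodes the member nearest to the cell surface, had counts of 1 and 0 in the WT libraries at Day 0, 1 and 1 in KO at Day 0, 4357 and 1806 in WT at Day 5, and 9785 and 8747 in KO at Day 5. The lowest Day 5 library stood at 435 CPM and the highest Day 0 library at 0.184 CPM. No value of a Day 5 group overlapped one of a Day 0 group. Scaled for depth, the summed count was 6284 times higher at Day 5 in WT (95% counting interval 1128 to 248263, exact binomial) and 14789 times higher in KO (4093 to 122127). The fitted log2 fold change in WT was 12.28 (SE 0.47), 14.83 without replicate 1 at Day 0, whose partner has 0 counts, and 11.57 without replicate 2. The intervals are wide because the denominators are 1 and 2 reads, and they cover counting error only.

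*Ifitm2*, a member found mainly in endosomes, had counts of 0 and 2 in WT at Day 0 and of 0 and 0 in KO at Day 0. At Day 5 there were 1834 and 1016 in WT and 1929 and 2041 in KO. All Day 5 libraries, at 245 to 386 CPM, were far above all Day 0 libraries, the highest of which was 0.452 CPM. In WT the depth-scaled ratio was 1453 (402 to 12004), and the fitted log2 fold change of 10.33 (SE 0.38) was 9.24 without replicate 1 at Day 0 and 13.78 without replicate 2, the only library with reads. In KO it was at least 673-fold higher at Day 5, taking 3 counts per library as the floor at Day 0.

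*Ifitm3*, the best studied antiviral member, had counts of 2 and 1 in WT and 18 and 2 in KO at Day 0, and of 1159 and 333 in WT and 961 and 814 in KO at Day 5. It was the only one of these 3 genes with a Day 0 library above 3 counts, KO replicate 1, which held 1.54 CPM. Day 5 libraries ranged from 80.2 to 204 CPM and did not overlap Day 0. The ratio was 507 in WT (173 to 2462) and 142 in KO (91.4 to 232). In WT the fitted log2 fold change was 8.80 (SE 0.65), and 7.99 without replicate 1 at Day 5. The KO value rests in part on replicate 1 at Day 0: the fitted log2 fold change of *Ifitm3* was 7.15 (SE 0.50) with it and 8.73 without it.

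**Figure D1:**
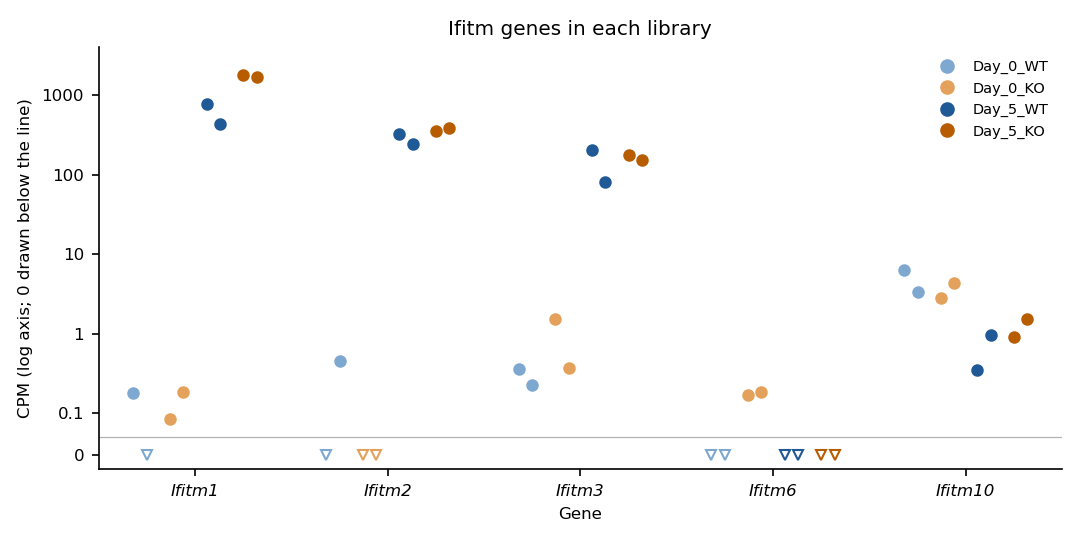
CPM of the 5 *Ifitm* genes in each of the 8 libraries, on a log axis, with libraries at 0 counts drawn as open triangles below the line. *Ifitm1*, *Ifitm2* and *Ifitm3* stood at or under 1.54 CPM in all Day 0 libraries and between 80.2 and 1799.9 CPM in all Day 5 libraries, while *Ifitm10* was lower at Day 5 and *Ifitm6* was near 0 throughout.

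The members outside this trio behaved otherwise. *Ifitm6* had no count in any Day 5 library or in WT at Day 0, and 2 and 1 counts in KO at Day 0, which is at or under the floor, so no fold is given and the gene did not pass the filter on low counts. *Ifitm10*, the member that lies outside the cluster, was the only one of the 5 detected above the floor in all Day 0 libraries. Its counts were 35 and 15 in WT at Day 0, 33 and 24 in KO at Day 0, 2 and 4 in WT at Day 5, and 5 and 8 in KO at Day 5. These are 2.83 to 6.26 CPM at Day 0 and 0.353 to 1.51 CPM at Day 5, with no overlap between days. In WT it fell by 2.93 on the log2 scale (SE 0.66), a depth-scaled ratio of 8.17 (3.50 to 23.3) in favour of Day 0. This value was -3.68 without WT replicate 2 at Day 5 and -2.29 without WT replicate 1 at Day 5. In KO the log2 fold change was -1.52 (SE 0.58), a ratio of 2.75 (1.49 to 5.47). The KO value no longer passed the threshold with the replicate number as a block (-1.53), with DESeq2 (-1.52), or without WT replicate 1 at Day 0 (-1.52), KO replicate 2 at Day 0 (-1.21), KO replicate 1 at Day 5 (-1.20) or KO replicate 2 at Day 5 (-1.91).

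In the fit over 12597 genes (edgeR quasi-likelihood, false discovery rate (FDR) under 0.05 after Benjamini-Hochberg adjustment), all 4 tested members were called with culture in each genotype, *Ifitm1*, *Ifitm2* and *Ifitm3* as higher and *Ifitm10* as lower. Of all tested genes, 48.3% were called in WT (24.7% higher, 23.6% lower) and 50.2% in KO (26.2% higher, 24% lower). Since the members were chosen on these contrasts, nothing is read from their count. By the fitted log2 fold change in WT, 1 tested gene stood above *Ifitm1*, 11 above *Ifitm2* and 43 above *Ifitm3*. In KO 1 gene stood above *Ifitm1*, 0 above *Ifitm2* and 110 above *Ifitm3*. For genes near 0 counts these fitted values, and with them the order, depend on the prior count and on single Day 0 libraries, and in bulk RNA a larger share of expressing cells and more RNA per cell cannot be told apart.

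Levels can be compared between genes only per length. The lengths used were all annotated exon bases, 1094 for *Ifitm1* (3 transcripts), 655 for *Ifitm2* and 678 for *Ifitm3* (1 transcript each). The order of the genes depends on these lengths, and repeated windows were not corrected for. On the scale of CPM per kb of exon, *Ifitm1* averaged 550 ± 215 (SD, n = 2), *Ifitm2* 434 ± 84.9 and *Ifitm3* 210 ± 130 in WT at Day 5. The libraries of *Ifitm1* (398 and 702) and *Ifitm2* (374 and 494) overlapped, so their order in WT is not beyond their spread, while both *Ifitm3* libraries (118 and 301) lay below them. In KO the averages were 1580 ± 92.9 for *Ifitm1*, 566 ± 34.1 for *Ifitm2* and 244 ± 23.6 for *Ifitm3*, in that order without overlap. At Day 0 *Ifitm10* averaged 1.01 ± 0.424 CPM per kb in WT, and every other member had at most 2 counts in each WT library, under the floor of 3, so no order is given there. In KO at Day 0 *Ifitm10* (0.755 ± 0.232) and *Ifitm3* (1.41 ± 1.23) overlapped.

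The genotype comparison asked whether levels of the family differed between the libraries labelled KO and WT on the same day. At Day 5 *Ifitm1* stood at 768 and 435 CPM in WT, a mean of 602 ± 236 CPM (SD, n = 2), and at 1799.9 and 1656 CPM in the libraries labelled KO, a mean of 1728 ± 102 CPM. Both KO libraries were above both WT libraries. The fitted log2 fold change was 1.52 (SE 0.21), or 2.87-fold. It was 1.998 without WT replicate 1 and 1.17 without WT replicate 2, and, since the gene was chosen on this contrast, these values are a description and nothing is read from its call.

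*Ifitm2* and *Ifitm3* differed less at Day 5. *Ifitm2* was at 323 and 245 CPM in WT and 355 and 386 CPM in KO, with no overlap but a log2 difference of only 0.38 (SE 0.17), which was not called. *Ifitm3* was at 204 and 80.2 CPM in WT and 177 and 154 CPM in KO. The KO libraries lay between the WT libraries, and the log2 difference of 0.21 (SE 0.32) turned to -0.30 without WT replicate 2 and rose to 1.05 without WT replicate 1. *Ifitm10*, at 0.353 and 0.964 CPM in WT and 0.920 and 1.51 CPM in KO, overlapped (log2 0.95, SE 0.78), with a value of 0.34 without WT replicate 1 and 1.73 without WT replicate 2. Of the 4 tested members 1, *Ifitm1*, was called at Day 5, and of all tested genes 1.63% (1.31% higher and 0.318% lower in KO). As with culture, the members' count is not read against that share.

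Within the family, *Ifitm1* took a larger part of the counts in KO than in WT at Day 5. It made up 59.3% and 57.2% of the family's counts in the WT libraries of that day and 77.2% and 75.3% in the KO libraries. There were 2.38 and 1.78 *Ifitm1* reads per *Ifitm2* read in WT against 5.07 and 4.29 in KO, and 3.76 and 5.42 per *Ifitm3* read in WT against 10.2 and 10.7 in KO. Neither ratio overlapped between the genotypes. Ratios within a library do not depend on its depth or scaling, but they use the same contrast as the choice of genes and are given without a test. The 5 genes together took 0.119% and 0.0758% of the gene counts in WT and 0.217% and 0.205% in KO.

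**Figure D2:**
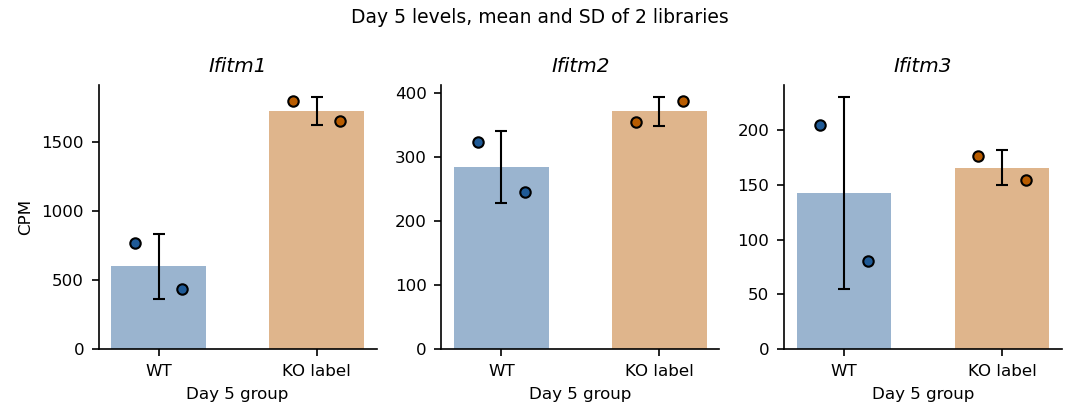
CPM of *Ifitm1*, *Ifitm2* and *Ifitm3* at Day 5 by genotype label, with bars for the mean of 2 libraries, error bars for the SD and points for the libraries, each panel on its own linear axis from 0. *Ifitm1* was at 768 and 435 CPM in WT against 1799.9 and 1656 CPM in KO, whereas the *Ifitm3* libraries of KO lay between those of WT.

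At Day 0 no tested member was called between the genotypes, where 1.8% of all tested genes were called (0.913% higher, 0.889% lower). *Ifitm1* and *Ifitm2* had at most 2 counts in any Day 0 library, so a difference was not detectable at this depth. *Ifitm3* had 20 reads over the KO libraries and 3 over the WT libraries, a depth-scaled ratio of 3.90 (1.16 to 20.5, counting error only), but 18 of the 20 came from replicate 1, and replicate 2 at 0.367 CPM was close to the WT libraries at 0.358 and 0.226 CPM. *Ifitm10* was at 6.26 and 3.39 CPM in WT and 2.83 and 4.40 CPM in KO, which overlapped (log2 -0.47, SE 0.49). No member was called in the genotype by day interaction, in which 0.159% of all genes were called. The SE for *Ifitm1* in it was 2.33 on the log2 scale, since the Day 0 counts are near 0.

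Other cells in the samples are a question for genes of this kind, since myeloid and stromal cells express *Ifitm* genes strongly. The 10 myeloid markers summed to between 13.4 and 22.4 CPM at Day 0 and to between 34.9 and 75.0 CPM at Day 5. Most of the Day 5 sum was *Cd68*, a lysosomal glycoprotein gene, at 30.7 to 68.4 CPM. Of the others, *S100a8*, *S100a9*, *Adgre1*, *Cd14* and *Csf3r* were at 0 in all Day 5 libraries and *Lyz2* had at most 1 count there. *Csf1r* went from between 38 and 89 counts at Day 0 to 20 and 16 in WT and 20 and 25 in KO at Day 5. *Itgam* went from between 14 and 24 to 3 and 2 in WT and 8 and 6 in KO. *Fcer1g* had 1 and 0 counts in WT and 8 and 4 in KO at Day 5. *Itgam* and *Fcer1g* were thus higher in the libraries that were higher in *Ifitm1*, while *Csf1r* overlapped between the genotypes. The 5 stromal and endothelial markers summed to 287 to 394 CPM at Day 0 and 91.6 to 105 CPM at Day 5, nearly all of it *Pecam1*. *Pdgfrb*, a stromal marker, had at most 2 counts in each Day 0 library. At Day 5 it had 3 and 0 counts in WT and 6 and 9 in KO, so it too was higher in the libraries that were higher in *Ifitm1*. The rest of that list did not follow it closely. *Col1a1*, at 3 and 1 counts in WT and 1 and 3 in KO, and *Col1a2*, at 2 and 0 and at 0 and 3, overlapped there. *Cdh5* had 0 counts in each Day 5 library, and *Pecam1* averaged 93.8 CPM in WT and 102 CPM in KO. The 5 B-cell markers summed to 122 to 166 CPM at Day 0 and 67.4 to 84.3 CPM at Day 5, nearly all of it *Cd79b*. The 4 NK-cell markers summed to 1957 to 2260 CPM at Day 0 and 3285 to 4198 CPM at Day 5, led by *Nkg7*, which cytotoxic T cells express too, with *Ncr1* at no more than 4 counts in any library. Between the Day 5 genotypes, the myeloid sum was 34.9 and 41.7 CPM in WT and 75.0 and 53.0 CPM in KO, again mainly *Cd68*. The part of these markers in the *Ifitm1* difference was not tested.

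Interferon-stimulated genes offered the closest comparison, since *Ifitm1*, *Ifitm2* and *Ifitm3* are counted among them. Of 40 other listed genes 38 were tested. With culture 18 were lower and 7 higher in WT, and 22 were lower and 6 higher in KO; 17 were lower and 6 higher in both genotypes, and none was called in opposite directions. Of all tested genes 24.7% were called higher and 23.6% lower in WT, and 26.2% and 24% in KO. The median log2 fold change of the list was -0.56 in WT and -0.91 in KO, beside -0.04 and -0.05 over all tested genes. Without WT replicate 2 at Day 0 there were 11 lower and 6 higher in WT, and without WT replicate 2 at Day 5 there were 12 lower and 9 higher. The 3 *Ifitm* genes thus moved the other way from most of the called genes of the list, by a smaller majority in those fits.

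Among the listed genes called in both genotypes, those with the largest falls were *Oasl1*, *Ifit1*, *Ifit3*, *Oas2* and *Ifit3b*. *Oasl2* had a log2 fold change of -3.09 in WT (SE 1.29, FDR 0.0657), which was not called. *Oasl1*, an oligoadenylate synthetase-like gene, fell by 3.26 on the log2 scale in WT (SE 0.64, FDR 0.00111) and by 4.75 in KO (SE 0.76, FDR 0.000219). *Ifit1*, whose product binds viral RNA caps, stood at 201 and 276 CPM in WT at Day 0 and 51.3 and 10.6 CPM at Day 5 and fell by 2.90 in WT (SE 0.46, FDR 0.000239) and fell by 3.74 in KO (SE 0.48). The log2 fold changes in WT and KO were -2.79 and -4.41 for *Ifit3*, its partner, -2.56 and -4.28 for *Oas2*, which makes the activator of RNase L, and -2.33 and -3.997 for *Ifit3b*. WT replicate 1 at Day 5 held the higher value of each of these genes. Without it the WT log2 fold changes were -5.76 for *Oasl1*, -4.46 for *Ifit1*, -4.10 for *Ifit3*, -8.52 for *Oas2*, whose remaining library has 0 counts so that the value depends on the prior count, and -3.80 for *Ifit3b*, and without WT replicate 2 at Day 5 they were -2.50, -2.18, -2.16, -1.70 and -1.69, the last of these no longer called. The *Ifit3b* call in WT was also lost without WT replicate 2 at Day 0 (-1.57), and in KO its value was -3.12 without KO replicate 1 at Day 0. For *Oasl1* in KO the value was -9.30 without KO replicate 1 at Day 5, where the remaining library again has 0 counts, and -3.79 without KO replicate 2, and for *Oas2* in KO it was -5.06 without KO replicate 2 at Day 5.

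The 6 listed genes that rose in both genotypes, named after their values were seen, were *Gbp3*, *Gbp2*, *Isg20*, *Samhd1*, *Eif2ak2* and *Dhx58*. *Gbp3*, an interferon-inducible GTPase gene, rose by 1.80 in WT (SE 0.17, FDR 3.21e-06) and 1.63 in KO (SE 0.17, FDR 5.61e-06) on the log2 scale, from 56.3 and 59.5 CPM to 224 and 179 CPM in WT. *Isg20*, an exonuclease gene, rose by 1.76 and 1.57, *Gbp2* by 1.46 and 1.12, and *Samhd1*, whose product depletes nucleotides, by 1.39 and 0.56. The value of *Isg20* in WT was 1.11 without WT replicate 1 at Day 5. The KO call of *Eif2ak2* (0.45) was lost in 7 of 16 alternatives, among them scaling by library totals, that of *Gbp2* in KO without KO replicate 1 at Day 5 (0.60), and that of *Dhx58* without WT replicate 1 at Day 0 or Day 5 or, in KO, without KO replicate 2 at Day 5.

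**Figure D3:**
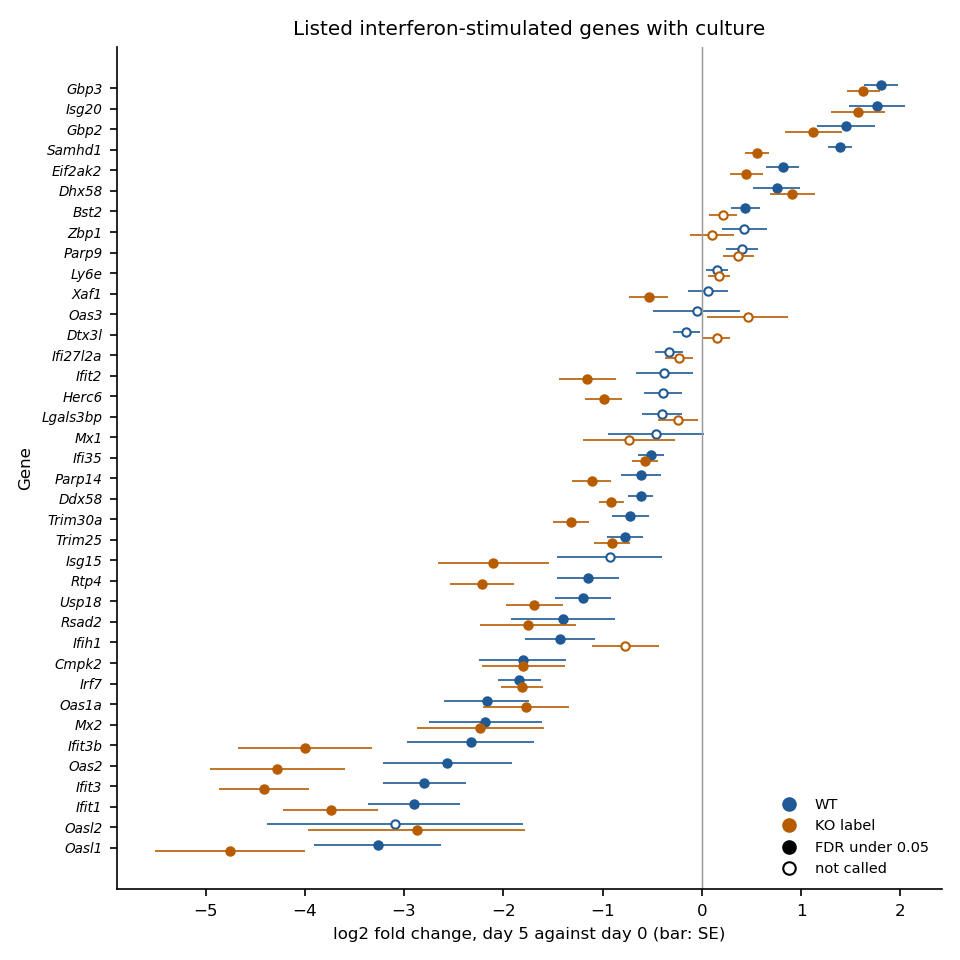
Log2 fold change of the 38 tested interferon-stimulated genes, Day 5 against Day 0, with blue points for WT and orange points for the KO label, bars for the SE and filled points for FDR under 0.05. Called genes reached from *Oasl1* at -3.26 and -4.75 to *Gbp3* at 1.80 and 1.63.

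Between the genotypes few listed genes were called, as of all tested genes. At Day 0 only *Samhd1* was called, higher by 0.74 in KO (SE 0.12, FDR 0.00899), and its call was lost without WT replicate 1, WT replicate 2 or KO replicate 1 at Day 0. At Day 5, where *Ifitm1* was 2.87-fold higher in KO, 0 of the 38 genes were called by edgeR and 0 by DESeq2, which gave no adjusted p for 6 of them, with 5 at an unadjusted p under 0.05. Over all tested genes 1.63% were called and 14.1% were at an unadjusted p under 0.05, so the counts of the list are near the background and show nothing particular to it. The median log2 difference of the list was -0.14 beside 0 over all genes. For the interaction 0 were called by edgeR and 1, *Samhd1*, by DESeq2, which gave no adjusted p for 8, with 5 at an unadjusted p under 0.05 beside 12.4% of all genes. Promoters of 29 of the 40 genes were in the RefSeq table, and 12 of their 34 windows (35.3%) held the response element that *Ifitm2* has.

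Of the signals upstream, the ligand gene *Ifng* was the only tested one of 4 listed. It had 2 and 1 counts in WT and 0 and 0 in KO at Day 0, and 91 and 33 in WT and 17 and 11 in KO at Day 5. It was called higher with culture in WT (FDR 5.52e-05) and in KO (FDR 0.000296), where all Day 0 libraries were under the floor, and so moved in the same direction as the 3 *Ifitm* genes. In CPM it was at 16.0 and 7.95 in WT and 3.13 and 2.08 in KO at Day 5, lower in KO by a log2 difference of -2.21 (SE 0.47, FDR 0.0429), a call that was lost in 6 of the 15 alternatives that gave an adjusted p, among them the fit without WT replicate 1 at Day 5 (-1.59). Between the genotypes its direction was thus opposite to that of *Ifitm1*. The type I genes *Ifnb1*, *Ifna2* and *Ifna4* had at most 2 counts in any library.

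Among receptors, 5 of 6 listed genes were tested and edgeR called *Ifngr1*, the ligand-binding chain for interferon gamma, and no other. DESeq2 called *Il10rb* as well with culture in WT, where the edgeR log2 fold change was 0.49 (SE 0.19, FDR 0.0526), and *Ifngr1* in the interaction, in which edgeR called no receptor. *Ifngr1* rose with culture by 1.77 in WT (SE 0.13, FDR 3.30e-07) and by 0.81 in KO (SE 0.13, FDR 0.000216). At Day 0 it was at 476 and 561 CPM in WT and 1352 and 1127 CPM in KO, higher by 1.26 (SE 0.13, FDR 0.000279). At Day 5 none of the 5 was called between genotypes by edgeR or DESeq2, with 2 at an unadjusted p under 0.05 beside 14.1% of all genes.

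All 9 listed kinases and factors were tested. In WT 6 were lower at Day 5 (*Irf3*, *Jak1*, *Irf9*, *Tyk2*, *Stat2* and *Jak2*) and in KO 5 (*Jak1*, *Irf9*, *Irf1*, *Irf3* and *Irf2*), with none higher, beside 23.6% and 24% of all tested genes called lower and 24.7% and 26.2% called higher. *Jak1*, the kinase shared by all interferon receptors, fell by 1.32 in WT (SE 0.12, FDR 1.98e-06) and fell by 1.502 in KO (SE 0.12, FDR 5.54e-07). *Irf9*, the DNA-binding partner of STAT2, fell by 1.29 and 1.41, and *Irf3* by 1.48 and 0.84. The *Tyk2* call in WT was lost without WT replicate 2 at Day 0 or Day 5, the *Jak2* call in WT without WT replicate 2 at Day 0 (-0.48) or WT replicate 1 at Day 5 (-0.46), the *Irf2* call in KO without KO replicate 1 at Day 0 or either KO library at Day 5, and the *Irf3* call in KO without KO replicate 1 at Day 0. Between the genotypes 0 of the 9 were called at Day 0 and 1 at Day 5, with 2 on each day at an unadjusted p under 0.05, beside 1.8% and 1.63% of all genes called and 13.8% and 14.1% at an unadjusted p under 0.05. The called gene, *Stat2*, was at 29.98 and 33.3 CPM in WT and 54.3 and 68.0 CPM in KO at Day 5, higher by 0.95 (SE 0.17, FDR 0.0172), a call that was lost when any of these 4 libraries was left out. Of 4 listed inhibitors 3 were tested. *Ptpn2*, a phosphatase acting on JAK1, rose by 1.29 in WT and 0.99 in KO, and *Pias1* fell by 0.30 in WT, a call lost in 12 of 16 alternatives.

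Genes whose products modify or bind IFITM proteins were all tested, 7 of 7. *Cd81*, a tetraspanin gene, was at 36.5 and 25.1 CPM in WT and 43.1 and 27.5 CPM in KO at Day 0, and at 45.5 and 89.9 CPM in WT and 108 and 136 CPM in KO at Day 5. It rose by 1.12 in WT (SE 0.31, FDR 0.0103), a call lost without WT replicate 2 at Day 0 or at Day 5, and by 1.77 in KO (SE 0.30, FDR 0.000346). *Nedd4*, a ubiquitin ligase that turns over IFITM3, rose by 0.75 and 1.19. *Setd7*, a methyltransferase that modifies IFITM3, fell by 0.94 and 0.93, calls lost without WT replicate 2 at Day 0, without either WT library at Day 5 and, in KO, without KO replicate 2 at Day 5. *Zdhhc20*, a palmitoyltransferase, fell by 0.64 in KO. No gene of this list was called between genotypes at either day by edgeR or DESeq2, with 1 at Day 0 and 3 at Day 5 at an unadjusted p under 0.05, where 13.8% and 14.1% of all genes were. With 1.8% and 1.63% of all genes called, no call among 7 genes is near the background.

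Other genes with a CD225 domain did not follow the cluster. Of 9 listed, 8 were among the counted symbols and 2 were tested. *Tmem91* fell by 0.80 in WT (SE 0.24, FDR 0.0173), a call lost in 3 of 16 alternatives, and by 1.61 in KO (SE 0.24, FDR 0.000121). *Prrt1*, at 12 counts or fewer in each library, fell by 2.31 in WT (SE 0.90, FDR 0.0493), a call lost in 8 of 14 alternatives. *Ifitm5*, a bone gene outside the span of the cluster whose start lies 5.70 kb from that of *Ifitm2*, had at most 4 counts in any library, and *Ifitm7* at most 2.

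No tested gene within 150 kb of the cluster rose to the extent of the 3 *Ifitm* genes. Of 26 annotated genes starting in that span, 21 were counted and 10 were tested, and their log2 fold changes with culture lay between -0.78 and 1.25 in WT and between -0.82 and 1.57 in KO. In WT *Sirt3*, a mitochondrial deacetylase gene 73.7 kb from the nearest member, rose by 1.25 (SE 0.16, FDR 3.59e-05) and *Bet1l* fell by 0.78 (SE 0.25, FDR 0.0195). In KO *Sirt3* rose by 1.45 and *Pkp3* by 0.62, and *Bet1l* fell by 0.82 and the pseudogene Gm15542 by 0.80. Beside these calls, 24.7% of all tested genes were called higher and 23.6% lower in WT, and 26.2% and 24% in KO. The *Bet1l* call in WT was lost without WT replicate 1 at Day 0 (-0.55) or either WT library at Day 5, in KO without KO replicate 1 at Day 0 (-0.46) or Day 5, and the Gm15542 call in 6 of 16 alternatives. *Pgghg*, counted under its older symbol *Athl1* and only 14.6 kb from *Ifitm2*, averaged 7.13 ± 0.470 CPM (SD, n = 2) in WT at Day 0 and 7.01 ± 1.06 CPM at Day 5.

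Between the genotypes at Day 5, *Pkp3*, a desmosomal plaque gene 60.3 kb from *Ifitm6*, was the only called neighbour of 10 tested. Over all tested genes 1.63% were called, 1.31% as higher in KO. It averaged 161 ± 9.93 CPM in WT and 276 ± 12.9 CPM in KO (SD, n = 2), higher by 0.77 (SE 0.12, FDR 0.00778), a call that was lost without KO replicate 1 (0.82) or KO replicate 2 (0.72) at Day 5.

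**Figure D4:**
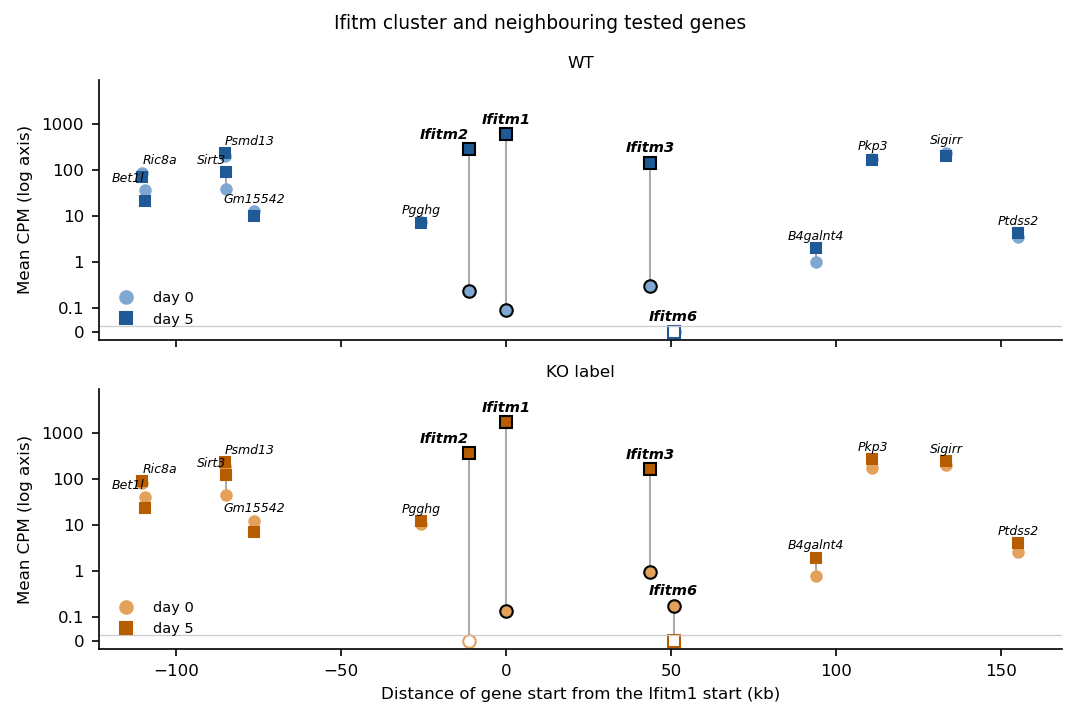
Mean CPM of the clustered *Ifitm* genes and the 10 tested neighbours at Day 0 (circles) and Day 5 (squares), on a log axis with 0 drawn at the bottom as open symbols, against the distance of each gene's start from that of *Ifitm1*; WT is above and the KO label below. Lines join the days and are long for *Ifitm1*, *Ifitm2* and *Ifitm3*, while *Sirt3*, the neighbour called higher in both genotypes, rose by 1.25 and 1.45 on the log2 scale.

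*Ifitm1*, *Ifitm2* and *Ifitm3* followed each other over the 8 libraries, with a Pearson r of log2 CPM of 0.992 for *Ifitm1* with *Ifitm2*, 0.988 with *Ifitm3* and 0.981 for *Ifitm2* with *Ifitm3*. The libraries share the step between the days, which sets most of these values. Among 8003 candidates with a mean of at least 10 CPM, an r of at least 0.95 was found for 1073 genes (13.4%) with *Ifitm1*, 1110 (13.9%) with *Ifitm2* and 1016 (12.7%) with *Ifitm3*. The 5 most like *Ifitm1* were *Atp8b4*, Gm12999, *Ndrg2*, *Prdx2* and *Ech1*. *Atp8b4*, a phospholipid flippase gene, averaged 192 CPM in WT and 193 CPM in KO at Day 0, and 854 and 1021 CPM at Day 5. For *Ifitm2* they were *Fam64a*, *Stmn1*, *Acat2*, *Mthfd2* and *Ska1*, which include mitotic genes such as *Ska1*, at 0.226 and 0.0429 CPM at Day 0 and 54.0 and 55.1 CPM at Day 5. For *Ifitm3* they were 9330175E14Rik, *Ergic1*, *Nuf2*, *Slamf7* and *Rrm1*. With Spearman's correlation in place of Pearson's, 2, 1 and 2 of the 5 stayed.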

How the data were processed

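RNA-seq of 8 libraries of mouse splenic CD8+ T cells was used. The authors deposited 1 table of raw counts per library, with a row for each gene symbol, neither normalized nor pooled. The submitters' processing notes name HISAT2 2.1.0, HTSeq 0.11.1 and mm10 (GRCm38). The gene annotation and strand setting of the counting are not given in the sources used here. Summary lines of the counter were left out of library sizes, and assigned reads were 21.2% to 24.5% of all records.

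Groups came from the sample titles. A quasi-likelihood fit (legacy form) of edgeR 4.0.16, run in R 4.3.3, took all 8 libraries together with 1 mean for each of the 4 groups, TMM scaling (a trimmed mean of log ratios) and the default filter (minimum count 10), two-sided p-values with Benjamini-Hochberg adjustment over 12597 genes, and a threshold of FDR 0.05. The common biological coefficient of variation was 15%. CPM used TMM-scaled library sizes. Ratios of summed counts carry exact binomial 95% intervals. The fit was tested on simulated data. Named were the 5 members, the 4 genes of each list with the highest absolute log2 fold change among those called in a comparison, tested genes within 150 kb and, for 3 members, the 5 most correlated genes (log2 CPM, prior count 2). Members and lists were chosen with earlier results of these data known. The lists held interferon-stimulated genes, ligands, receptors, kinases and factors, inhibitors, IFITM modifiers, other CD225 domain genes and cell type markers. Gene models were GENCODE M21 and promoters RefSeq GRCm38.p6. Alternatives were other scalings (DESeq2 size factors, library totals), no filter or 5 CPM in 2 libraries, the libraries of a comparison alone, a replicate block, the edgeR 4 form of the fit, DESeq2 1.42.0 and leaving out each library in turn.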

Additional observations from a re-analysis of the deposited data

How the results depend on the processing

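No result turned its direction past the threshold under any alternative listed in the processing summary, and *Ifitm10* could not be tested under the filter of 5 CPM in 2 libraries. Without the filter on low counts the genes called went from 227 to 434 for KO against WT at Day 0, from 205 to 418 at Day 5 and from 20 to 154 for the interaction. With DESeq2 they were 350 at Day 5 and 144 for the interaction. Listed interferon-stimulated genes called without the filter numbered 2 at Day 0, 3 at Day 5 and 3 for the interaction, and with DESeq2 1 for the interaction. Scaling by library totals gave a mean of 1611 CPM for *Ifitm1* and 346 CPM for *Ifitm2* in KO at Day 5 and shifted the median of all tested genes with culture by -0.14 in WT and -0.18 in KO (log2). Leaving out 1 library gave 4630 to 6240 genes called with culture in WT and 4669 to 6510 in KO, 38 (without WT replicate 1) to 276 between genotypes at Day 0, 32 (without KO replicate 2) to 249 at Day 5, and 0 to 41 for the interaction. Members called were 4 to 4, 3 to 4, 0 to 0, 1 to 1 and 0 to 0 in the same order, and interferon-stimulated genes 17 to 27, 19 to 30, 0 to 1, 0 to 1 and 0 to 0. The cause of these moves was not tested. Since the members were chosen on these contrasts, nothing is read from their calls. The labels do not say that equal replicate numbers mark the same mouse. Deviations from the group means of same-numbered libraries correlated by 0.12 and 0.23 between days and by 0.0044 and -0.017 between genotypes, so the numbers were not taken as pairs. With the replicate block 5999 genes were called with culture in WT, 6291 in KO, 216 and 215 between genotypes and 29 for the interaction, and among the members only the *Ifitm10* call in KO was lost. Depth limits *Ifitm1*, *Ifitm2* and *Ifitm6* at Day 0, where no difference could be seen.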
